A study of Mus musculus with 6 samples.

Results

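The germinal centre is the structure inside a B cell follicle where activated B cells divide, mutate their antibody genes and are selected. Its B cells are held there by a transcription factor, BCL6, and by a set of receptors and signalling proteins that limit their movement. A node of an unimmunised mouse holds few germinal centres, although mesenteric nodes, which drain the gut, usually carry some. TNF is a cytokine on which the follicular dendritic cell network that supports germinal centres is known to depend.

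The genes described here are 7 that are known for their pattern in germinal centre B cells, namely Bcl6, S1pr2, Mybl1, Rgs13, Gcsam, Neil1 and Cd38. They were taken by name, and every probe whose RefSeq accession belongs to one of them was kept. Of the 7 genes, 6 had a probe, among 12254 genes named on the array. No probe was matched to S1pr2, the receptor that confines germinal centre B cells, so it was not analysed here. Bcl6 had 2 probes, so 7 of the 41006 probes on the array were followed. The scanner software marked all 7 as well above background on 6 of 6 arrays in both channels, a dim Bcl6 probe of 14 to 24 units included, and 0 as saturated.

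Mesenteric lymph nodes of naive adult mice were compared on 6 two-colour arrays. The tested nodes were from the TB-TNF KO double strain, which by its name and the series title lacks TNF from both T and B cells. They were set against nodes of the B-TNF KO strain, which lacks it from B cells, so the B cell deletion is shared by both groups and no node with intact TNF was analysed here. Each group had 3 arrays, each array held a pool of nodes of 3 mice, and the labels name no deleter strain or promoter. The common reference was a pool of RNA from 11 mouse cell lines, a B-lymphocyte and a testis line among them. All pools were labelled male except TB-TNF KO array 2, labelled female.

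Some arrays stood apart. TB-TNF KO arrays 1 and 2 had a spread of node signal that was 0.952 of the spread of reference signal, a ratio that ran between 1.06 and 1.59 in the 14 remaining pairs, and they were counted as 1 sample. The Y-linked gene Eif2s3y had log2 ratios of -2.81 and -2.84 on the libraries labelled TB-TNF KO 1 and 2, against 1.49 on TB-TNF KO 3 and 0.59 to 1.83 in B-TNF KO, so the library labelled TB-TNF KO 1 went against its label of male. The groups were extracted from the scans on separate days, so day and group cannot be told apart. Tnf, the targeted gene, had log2 ratios of -0.66, -0.63 and -0.84 in TB-TNF KO and 0.19, 0.36 and 0.49 in B-TNF KO (difference -1.09, SE 0.10, limma adjusted p = 0.055). A second Tnf probe differed by -0.26 (SE 0.06, adjusted p = 0.0993). The sources used here do not say where either probe lies relative to the deletion.

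The first 30 bases of 4 of the 60-base probes are shown because 2 of them belong to the same gene and gave very different signals, and the other two stand at the ends of the range of GC content among the 7 probes. Capitals mark the longest run of A and T within these bases. Sequences are those of the deposited scanner files, 5′ to 3′.
Bcl6, bright probe: ATTActccggagacagggtttggctgtgtc
Bcl6, dim probe: gttttaaagcAAAATTTTggactgtgaagc
Rgs13: tcttcATAATATggactcaccatagtgttg
Neil1: agaggaggATTTTgctgcctttcgagcctg

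GC content over the whole probe was 43.3% and 45% for the Bcl6 pair, 35% for Rgs13 and for Gcsam, and 56.7% for Neil1. The Mybl1 probe held 43.3% and the Cd38 probe 45%. GC content is given because the share of all probes that were lower in TB-TNF KO varied with it. At an unadjusted limma p under 0.05 this share was 23.2% at up to 35% GC and 2.24% above 55% GC.

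None of the 7 probes passed the threshold in TB-TNF KO against B-TNF KO. Among all 40790 probes tested, limma called 0 higher (0%) and 6 lower (0.0147%). At an unadjusted p under 0.05 it had 2049 higher (5.02%) and 4552 lower (11.2%), and the bright Bcl6 probe and Gcsam were among the latter. Of the 6 genes, by the brightest probe, 4 had lower values in TB-TNF KO (Bcl6, Rgs13, Gcsam and Cd38) and 2 had higher values (Mybl1 and Neil1). The median difference was -0.22 over these 6 genes and -0.0109 over all probes. In the node channel alone, normalised without the reference, the median of the 6 genes was -0.04. All TB-TNF KO arrays lay below all B-TNF KO arrays for 2 of the 6 genes, Bcl6 and Gcsam, and for 16.9% of all probes. In bulk tissue, fewer cells of a type and less RNA per cell cannot be told apart.

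Bcl6 encodes the transcriptional repressor on which formation of germinal centres depends. Its bright probe had log2 ratios of 0.75, 0.68 and 0.94 on TB-TNF KO arrays 1, 2 and 3, against 1.02, 1.07 and 1.09 on the B-TNF KO arrays. The groups did not overlap, and TB-TNF KO array 3 lay nearest to B-TNF KO. The mean was 0.83 ± 0.16 (SD, n = 2) in TB-TNF KO and 1.06 ± 0.04 (SD, n = 3) in B-TNF KO. The difference of -0.23 (SE 0.07) is 0.854-fold and did not pass (limma adjusted p = 0.214). With the replicate number as a block over the 6 arrays counted separately it was -0.27 and passed (limma adjusted p = 0.0498). So did 2535 of 40790 probes as lower at that setting, which counts TB-TNF KO arrays 1 and 2 as 2 samples. Once GC content was corrected too, the Bcl6 adjusted p was 0.0532. With a block on the 5 samples the Bcl6 difference was -0.25 and did not pass (adjusted p = 0.121).

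Before normalisation, the bright Bcl6 spot stood 3059, 2687 and 4096 intensity units above its local background on the TB-TNF KO arrays, and 5284, 4622 and 6193 units on the B-TNF KO arrays. The same spot gave 5219, 5236 and 4894 units of reference RNA on TB-TNF KO arrays and 5019, 4987 and 4855 on B-TNF KO arrays. Thus the separation lay in the node channel, although node intensity was lower overall in TB-TNF KO (array medians of 144 to 166 against 159 to 203). After quantile normalisation of the node channel alone the Bcl6 difference was -0.17 (SE 0.07, adjusted p = 0.227), still without overlap (17.4% of all probes lay lower in this way), and in the reference channel alone it was -0.02.

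The dim Bcl6 probe, whose sequence above starts with gttttaaagc, gave 18, 16 and 14 units of node signal on TB-TNF KO arrays and 19, 19 and 24 units on B-TNF KO arrays. Local background under this spot was 365 to 371 units. Its log2 ratios were 0.08, 0.00 and 0.05 in TB-TNF KO and -0.01, 0.11 and 0.11 in B-TNF KO, which overlap (difference -0.02, SE 0.05). The probe therefore carried little signal above background, so its difference cannot be set against that of the bright probe.

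Mybl1 encodes A-MYB, a transcription factor of dividing germinal centre B cells and of the testis. Its log2 ratios were -0.03, 0.07 and 0.26 on TB-TNF KO arrays and -0.01, 0.06 and -0.23 on B-TNF KO arrays. Only the arrays numbered 3 stood apart from the others, one at the top and one at the bottom. The difference was 0.20 (SE 0.11, limma adjusted p = 0.449). It was 0.49 between the arrays numbered 3 and 0.00 with both of these left out, so the value rested on them.

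Rgs13 and Gcsam act on movement and receptor signalling. Rgs13 encodes a regulator of G protein signalling that damps chemokine responses and is also known from mast cells. It was the member furthest above the reference pool, at 5.12-fold to 8.71-fold over the 6 arrays. Its log2 ratios were 2.42, 2.36 and 2.97 on TB-TNF KO arrays and 3.11, 2.86 and 3.12 on B-TNF KO arrays.

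TB-TNF KO arrays 1 and 2 were thus low for Rgs13, while array 3 fell inside the B-TNF KO range. Arrays 1 and 2 of TB-TNF KO were also the ones with low Eif2s3y (-2.81 and -2.84), so apparent sex cannot be told apart from this pattern. The difference of -0.35 (SE 0.18) had a limma adjusted p of 0.402. It was -0.64 without TB-TNF KO replicate 3 and -0.06 without TB-TNF KO arrays 1 and 2. Both settings leave TB-TNF KO with 1 sample, assumed to vary like B-TNF KO, and neither passed. TB-TNF KO array 3 exceeded the mean of arrays 1 and 2 by 0.58, and 0.734% of all probes differed at least that much within TB-TNF KO. In B-TNF KO the same contrast for Rgs13 was 0.14.

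In scanner units the Rgs13 spot gave 349, 287 and 505 of node signal on TB-TNF KO arrays and 602, 475 and 678 on B-TNF KO arrays. Its reference signal was 100, 88 and 70 units on TB-TNF KO arrays, against 67, 72 and 68 on B-TNF KO arrays. The arrays with the lowest Rgs13 ratio therefore also had the highest reference signal. After normalisation the reference channel differed by 0.00, and in the node channel alone the Rgs13 difference was -0.25 (SE 0.12, adjusted p = 0.278).

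**Figure D1:**
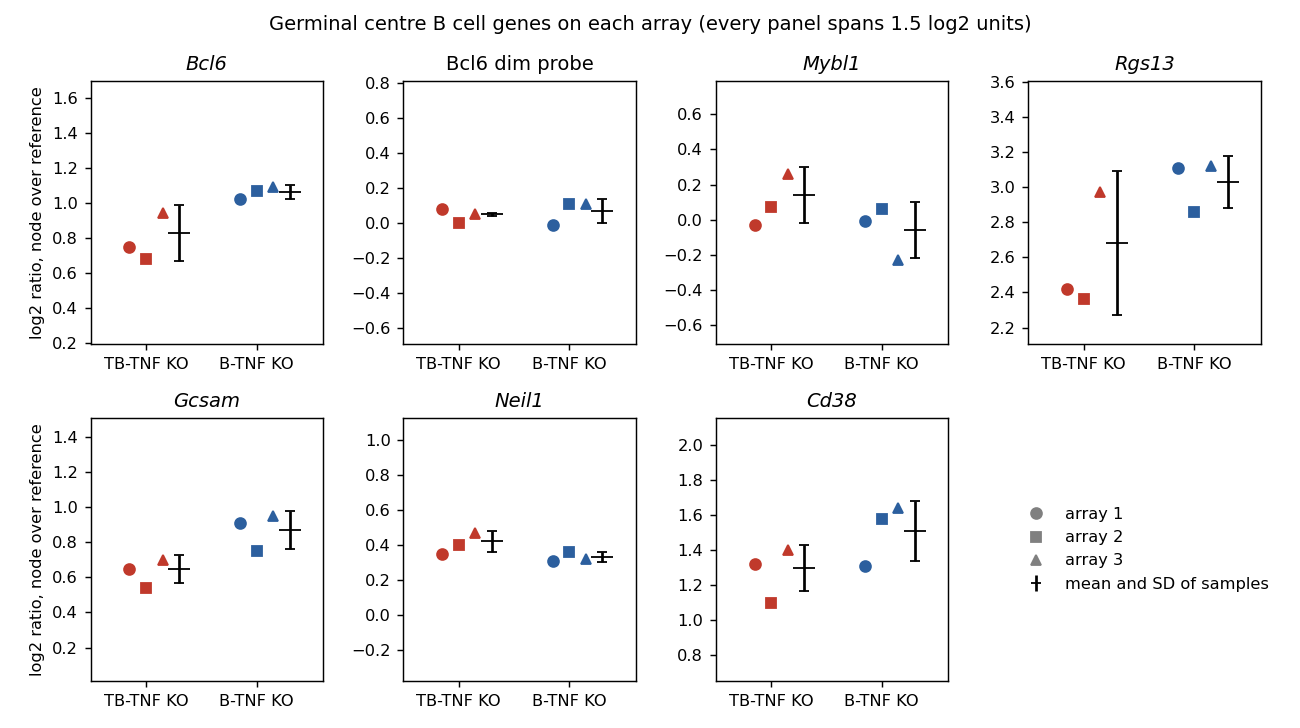
Log2 ratio of lymph node over reference RNA for each probe, with TB-TNF KO arrays left and B-TNF KO arrays right in each panel; the bars are the mean and SD of 2 TB-TNF KO and 3 B-TNF KO samples, and all panels span the same height. The bright Bcl6 probe and Gcsam show no overlap between groups, and Rgs13 is low on TB-TNF KO arrays 1 and 2 (2.42 and 2.36) but not on array 3 (2.97).

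Gcsam encodes an adaptor protein of germinal centre B cells that restrains their motility. Its log2 ratios were 0.65, 0.54 and 0.70 on TB-TNF KO arrays and 0.91, 0.75 and 0.95 on B-TNF KO arrays. The groups did not overlap, with a gap of 0.05 between the nearest arrays. The difference was -0.22 (SE 0.07, limma adjusted p = 0.235).

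For Gcsam the replicate block over the 6 arrays gave -0.24 and passed (adjusted p = 0.028), as did 2535 of 40790 probes as lower. Gcsam also passed when GC content was corrected as well (-0.21, adjusted p = 0.040), as did 2089 of 40790 probes as lower. The block on the 5 samples gave an adjusted p of 0.141. In the node channel alone the difference shrank to -0.03 (SE 0.09), with overlap, while the reference channel differed by 0.10. The Gcsam ratio thus differed more than the node signal did.

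Neil1 encodes a DNA glycosylase of base excision repair that is highly expressed in germinal centre B cells. Its log2 ratios were 0.35, 0.40 and 0.47 on TB-TNF KO arrays and 0.31, 0.36 and 0.32 on B-TNF KO arrays, which overlap. The difference was 0.09 (SE 0.05, limma adjusted p = 0.435). In the node channel alone all TB-TNF KO arrays lay above all B-TNF KO arrays, as did 15% of all probes, and the difference was 0.23 (SE 0.06, adjusted p = 0.0954). The Neil1 spot was also higher with no overlap in the reference channel, by 0.10 (SE 0.04), as did 11.4% of all probes, although the reference RNA is labelled the same on every array.

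Cd38 encodes an ectoenzyme that consumes NAD. In the mouse it is high on resting B cells and low on germinal centre B cells, which sets it apart from the other members. Its log2 ratios were 1.32, 1.10 and 1.40 on TB-TNF KO arrays and 1.31, 1.58 and 1.64 on B-TNF KO arrays, which overlap. The difference was -0.21 (SE 0.11, limma adjusted p = 0.433). It was -0.04 (SE 0.12) in the node channel alone. Cd38 thus had a lower ratio in TB-TNF KO of about the size seen for Bcl6 and Gcsam.

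**Figure D2:**
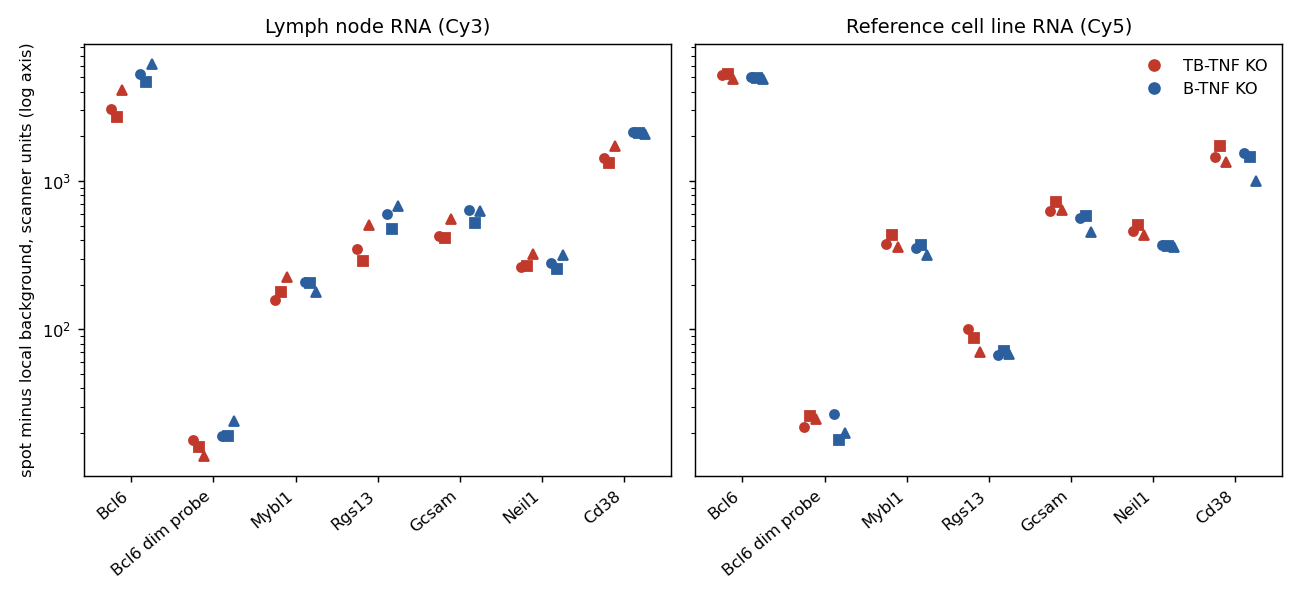
Signal of each probe above its local background in scanner units on a log axis, for node RNA (left) and reference RNA (right), with TB-TNF KO in red and B-TNF KO in blue and the symbols of arrays 1 (circle), 2 (square) and 3 (triangle). Node signal of the bright Bcl6 probe was 2687 to 4096 in TB-TNF KO and 4622 to 6193 in B-TNF KO while its reference signal barely moved; the dim Bcl6 probe lay at 14 to 24 units, and heights of different probes are not comparable.

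Further genes known from germinal centre B cells were divided. Of 24 listed, 17 were measured, 0 passed in either direction, 10 had lower and 7 higher values, and the median difference was -0.01. The transcription factor gene Mef2c had the largest, 0.34 (SE 0.08, limma adjusted p = 0.111), with log2 ratios of 2.19, 2.11 and 2.27 in TB-TNF KO and 1.81, 2.00 and 1.80 in B-TNF KO. It passed with the 6 arrays counted separately (adjusted p = 0.0392), as did 1.46% of all probes in that direction. At that setting 4.58% of all probes passed as lower, among them Egr2, Icos, Blk, Cd79a, Tnfrsf13c, Cxcl13, Coch, Cilp and Bst1. Irf8, another B cell transcription factor gene, differed by 0.26 and by 0.10 with its second probe. Lmo2 differed by -0.16, and its second probe gave -0.04. In the node channel alone Mef2c differed by 0.50, Irf8 by 0.33 and Lmo2 by -0.25, and the median of the list was -0.05.

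Among genes of the dark and light zones, the compartments where germinal centre B cells divide and are selected, 10 of 10 were measured and 0 passed. Of these, 7 had lower values, with a median of -0.12. Egr2, an early response transcription factor gene, differed by -0.26, Foxo1 and Bcl2a1a by -0.19 each and the costimulatory gene Cd86 by -0.16. In the node channel alone Egr2 differed by -0.23, Foxo1 by -0.04, Bcl2a1a by -0.22 and Cd86 by -0.01, and the median of the list was -0.06. Foxo1 was measured on B-TNF KO arrays 2 and 3 only. Bcl2a1a has near-identical copies, so its value is uncertain, and its second probe gave -0.03.

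Of the genes of follicular helper T cells, which select germinal centre B cells, 9 of 11 were measured and 0 passed, with a median of -0.04, or 0.11 in the node channel alone. Icos, a costimulatory receptor gene, had log2 ratios of 0.62, 0.56 and 0.78 in TB-TNF KO and 1.07, 1.01 and 1.13 in B-TNF KO (difference -0.39, SE 0.07, limma adjusted p = 0.078). In the node channel alone the Icos difference was -0.01. The inhibitory receptor gene Pdcd1 differed by 0.33 (SE 0.10, adjusted p = 0.178), Il4 by 0.13 with -0.22 at its second probe, and Cd40lg by -0.09.

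Markers of the surrounding cells were read in the same way. Of 12 pan-B cell markers 11 were measured, 0 passed, 8 had lower values and the median was -0.23. Of the 11, 7 lay lower with no overlap, against 16.9% of all probes. The markers were chosen with earlier results of these data known and are not independent, so that contrast was not tested. Tnfrsf13c, the BAFF receptor gene, differed by -0.53 and the kinase gene Blk by -0.51 (-0.09 at its second probe). Cd79a of the B cell receptor differed by -0.42 (-0.31 at its second probe) and Fcrl1 by -0.38. Ms4a1 and Cd22, chosen after their values were seen, differed by 0.03 and 0.12. In the node channel alone these 6 genes differed, in the same order, by -0.40, -0.47, -0.34, -0.65, 0.05 and 0.18, and the median of the list was -0.18. The median log2 ratio of the pan-B list, which on each array was the value of Fcrl1, was 3.03, 2.67 and 3.09 on TB-TNF KO arrays and 3.40, 3.33 and 3.31 on B-TNF KO arrays. The part of B cell content in the lower Bcl6, Gcsam and Rgs13 ratios was not tested.

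Genes of resting follicular B cells had a median of -0.09 over 7 of 11 measured, with 0 passing. S1pr1, the receptor by which lymphocytes leave the node, differed by -0.36, the chemokine receptor genes Ccr6 and Ccr7 by -0.30 and -0.22, and Klf2 by 0.16. In the node channel alone the direction turned for Ccr6 (0.05), Ccr7 (0.11) and the median of the list (0.11). It did not turn for S1pr1 (-0.37) or Klf2 (0.20). T cell markers (9 of 12 measured) had a median of -0.09, NK cell markers (5 of 8) -0.13 and plasma cell markers (5 of 8) -0.01, with 0 passing in each. The proliferation genes, which dividing germinal centre B cells would carry, had a median of 0.04 over 11 of 14 measured, from -0.20 to 0.13, and 0 passed.

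The follicular dendritic cell list held the one context gene past the threshold. Of 12 markers 9 were measured, 1 passed as lower and 0 as higher, with a median of -0.14. By sign alone 7 had lower and 2 had higher values. Cxcl13, the chemokine gene of follicles, had log2 ratios of 3.65, 3.38 and 3.40 in TB-TNF KO and 5.15, 5.04 and 4.87 in B-TNF KO (difference -1.56, SE 0.09, limma adjusted p = 0.0219). Its second probe differed by -1.65, and in the node channel alone the Cxcl13 difference was -1.94. The call was by construction absent in every setting that left 0 probes lower, among them the one without B-TNF KO array 2. Cilp, Coch and Bst1 differed by -0.84, -0.53 and -0.40 and did not pass. Cilp and Coch were dim, at 75 to 276 and 49 to 111 units of node signal. Mfge8, Clu and C4b differed by -0.12, -0.14 and -0.12, and Sox9 and Lrat by 0.06 and 0.21.

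**Figure D3:**
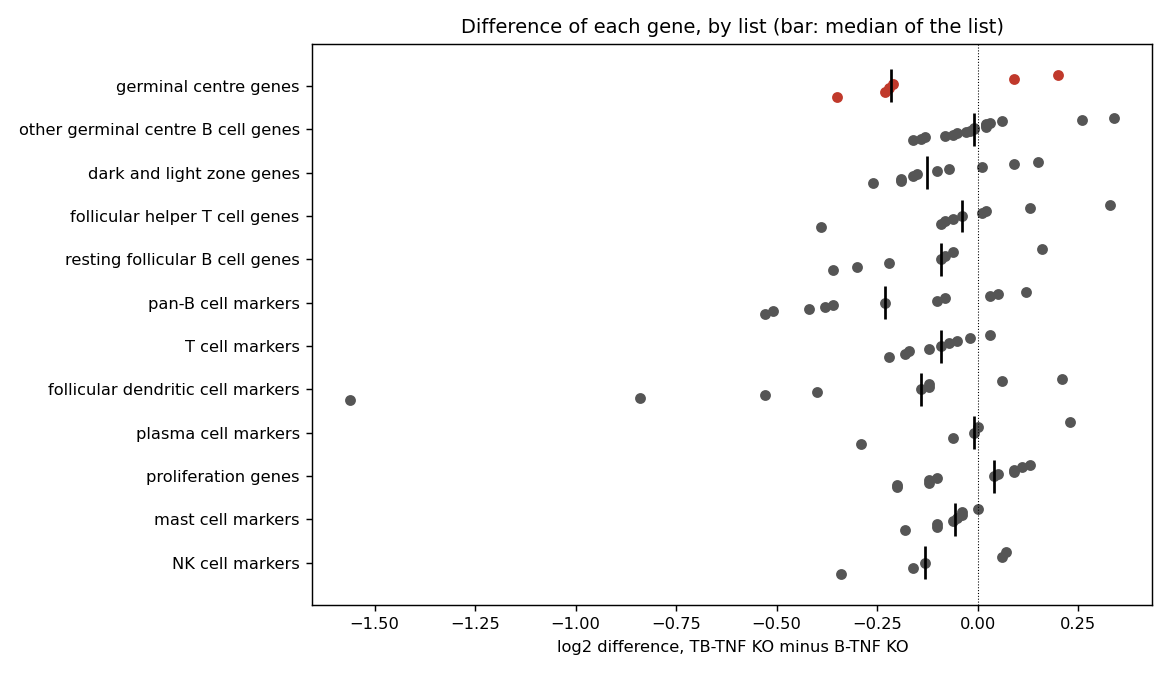
Log2 difference of TB-TNF KO minus B-TNF KO for the brightest probe of each gene, 1 row per list, with the list's median as a bar. The 6 measured germinal centre genes (red, top) spread from -0.35 to 0.20 around a median of -0.22, beside a pan-B cell median of -0.23 (-0.04 and -0.18 in the node channel alone), and Cxcl13 lies far left at -1.56.

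Mast cells are another known source of Rgs13. Of the 8 mast cell markers 0 passed, and the median of the list was 0.03, 0.06 and 0.03 on TB-TNF KO arrays and 0.06, 0.11 and 0.10 on B-TNF KO arrays. Lower values without overlap were seen for 4 of 8, against 16.9% of all probes. Neither that share nor the part of mast cells in the Rgs13 values was tested. Kit differed by -0.18 (-0.02 and -0.26 at its further probes), or by -0.02 in the node channel alone. The median difference of the list was -0.06, or 0 in the node channel alone.

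Transcripts of the exocrine pancreas, an organ beside the mesentery, were measured for 13 of 18 markers. Their median log2 ratio was 4.0, 4.09 and 0.01 on TB-TNF KO arrays 1, 2 and 3 and 2.90, 3.80 and 0.01 on B-TNF KO arrays. On arrays 1 and 2, where the pancreas median was high in both groups, Rgs13 was 2.42 and 2.36 in TB-TNF KO and 3.11 and 2.86 in B-TNF KO. Between arrays 1 and 2 of each group, TB-TNF KO minus B-TNF KO, Rgs13 differed by -0.60 and Bcl6 by -0.33, and between the arrays numbered 3 by -0.16 and -0.15. Gcsam differed by -0.23 and -0.24 and Cd38 by -0.24 in both of these comparisons. They have 1 sample in at least 1 group, so no test within them adds to the fit, and the part of pancreas RNA was not tested. Between arrays 1 and 2 of each group, apparent sex and group cannot be told apart.

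**Figure D4:**
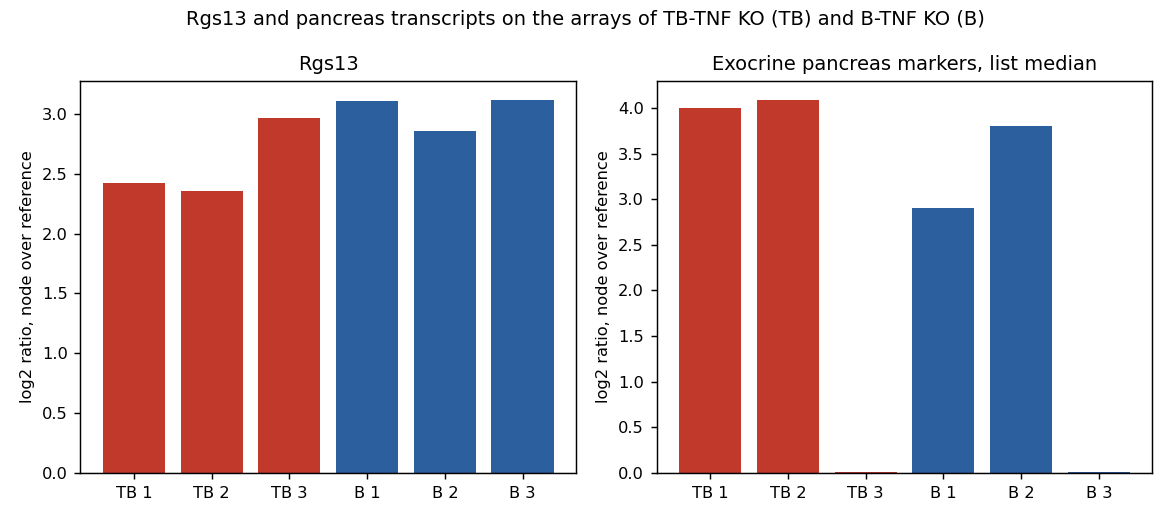
Log2 ratio of Rgs13 (left) and median log2 ratio of 13 exocrine pancreas markers (right) on each array, as bars from 0, with TB-TNF KO arrays first. Rgs13 is lowest on TB 1 and TB 2, and the pancreas median is near 0 on the array numbered 3 of both groups and at least 2.90 elsewhere.

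The Rgs13 and Gcsam probes, at 35% GC, had lower values and the Neil1 probe, at 56.7%, a higher value. The bright Bcl6 probe and the Mybl1 probe, both at 43.3%, differed by -0.23 and 0.20, and Cd38, at 45%, by -0.21. After each array was corrected for GC content, Rgs13 differed by -0.33, Gcsam by -0.19 and Neil1 by 0.07. With the same correction Bcl6 differed by -0.23, Mybl1 by 0.20 and Cd38 by -0.21. The part of GC content in these differences was not tested.

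**Figure D5:**
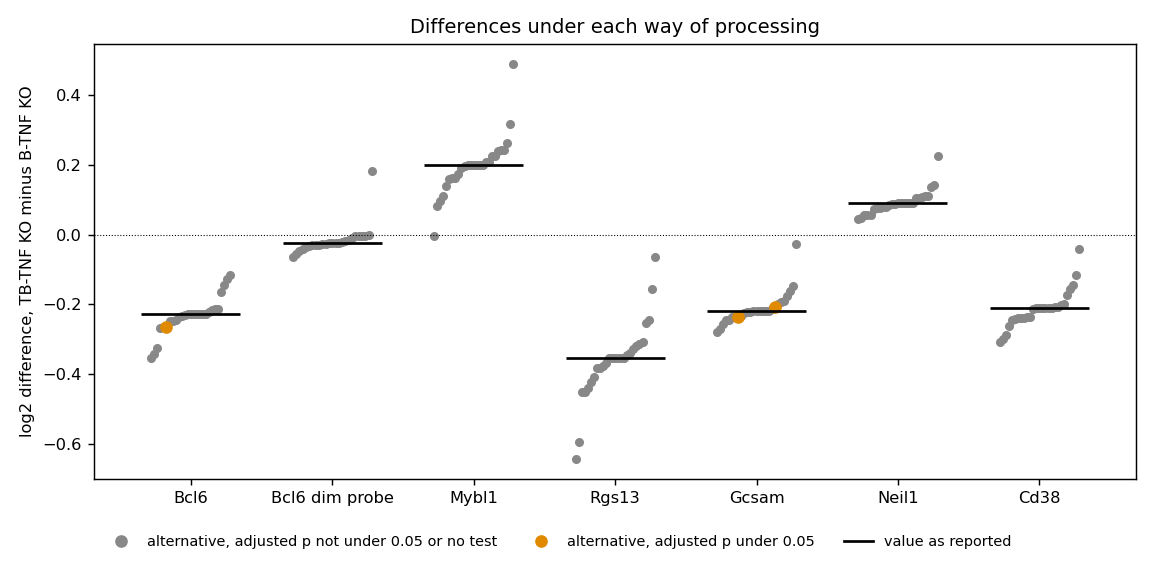
Log2 difference of TB-TNF KO minus B-TNF KO for each probe under every alternative processing (points, sorted from low to high within a probe), with the reported value as a line. Bcl6, Rgs13, Gcsam and Cd38 stayed below 0 and Neil1 above 0 in all 27 alternatives run. Only Bcl6 (1 setting) and Gcsam (2 settings) passed the threshold, each under a replicate block with 6 arrays. That block called 2535 of 40790 probes lower, or 2089 with the GC correction.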

How the data were processed

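Cy3 carried lymph node RNA and Cy5 the reference RNA, per the labels. Images were quantified by the authors in Agilent Feature Extraction, per the file headers. Spot and local background intensity of both channels were deposited, beside a log10 ratio of Cy5 over Cy3. The deposited series table is in log10 units, and how it was scaled is not given in the sources used here.

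Background correction used normexp (offset 50) on mean intensities. Loess normalisation then ran array by array, with control spots at weight 0. Both used limma 3.58.1 in R 4.3.3. A log2 ratio is node over reference. There was no dye swap. Spots with outlier flags (210 probe spots) were left out. A probe was kept when 3 or more arrays had node signal well above background, and 40790 of 41006 probes could be tested. Of 41034 spots, 15303 were named through RefSeq accessions of GRCm38.p6. TB-TNF KO arrays 1 and 2 were averaged as 1 sample, so limma (lmFit, eBayes, Benjamini-Hochberg over all probes, threshold 0.05) compared 2 samples with 3. Lists take the brightest probe of each gene. Each channel alone was quantile normalised after normexp. Every probe of each member was named. No gene of the T cell, NK cell, plasma cell, proliferation or pancreas lists was named. The rule for lists allowed up to 4 genes each, called ones first and then those with the largest difference. A result that this rule would name is not reported here. Genes of like pattern were to be named for members spanning more than 1 over the 6 arrays, which none did. Members and lists were chosen with earlier results of these data known.

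Same-numbered arrays deviated together from their group means over all probes (r = 0.134, 0.525 and 0.621 for numbers 1, 2 and 3; probes are not independent replicates). This met the rule for paired numbers. The reported values come from the comparison without a block, and the blocked value is given where it changes a call. On simulated data of 40645 probes with 2 against 3 samples, 93 of 100 changes of 1 and 61 of 100 changes of 0.5 (log2) were found, with 3 false calls. The simulated noise was independent between arrays, without the shared deviation of same-numbered arrays, so fewer changes may be found in the real data. There, Tnf at -1.09 did not pass (limma adjusted p = 0.055). Alternatives covered background, normalisation, channel, the authors' values, filters, probes, the spread, GC content, saturation, replicate numbers and each array left out. Figures used matplotlib 3.10.9 in Python 3.11.15.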

Additional observations from a re-analysis of the deposited data

How the results depend on the processing

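Against 0 probes higher and 6 lower, the counts were 597 and 1868 with the 6 arrays counted separately, 738 and 2535 with the replicate block added to these, and 693 and 2089 with the GC correction as well. Counting arrays separately takes TB-TNF KO arrays 1 and 2 as 2 samples. A replicate block on the 5 samples gave 1 higher and 5 lower. The node channel alone gave 193 and 211, and array weights 97 and 311. The lower count was 0 without background subtraction, 0 with plain subtraction, 1 with the deposited log ratio, 0 with the series table and 2 when the probes of each gene were averaged. It was 0 without replicate 3 of both groups, 0 without TB-TNF KO arrays 1 and 2, and 0 to 5 with each array left out. The cause was not tested. The 3 alternatives added after seeing the data were the GC correction with the block, the block on 5 samples and the arrays numbered 3 alone, which allowed no test. No batch held both groups, so that block was not run. Over 27 alternatives Bcl6 lay between -0.35 (median centring) and -0.12, Gcsam between -0.28 and -0.03, Cd38 between -0.31 and -0.04, and Rgs13 between -0.64 and -0.06. Neil1 lay between 0.04 and 0.23, and Mybl1 between 0.00 and 0.49, changing sign in 1. The dim Bcl6 probe changed sign in 2 of 25, up to 0.18 with median centring. The replicate block changed no other member's call. With 2 and 3 samples, differences of 0.2 or so are hard to tell from the spread, and the p-values measure only the spread between these pools.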
